A study of Homo sapiens with 6 samples.

Results

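The histone genes of the human genome were followed through the differentiation of H9, a widely used line of human embryonic stem cells, into neurons of the hypothalamic arcuate type. Members were the protein-coding entries whose symbols belong to the replication-dependent histone families (H1, H2AC, H2BC, H3C and H4C) or to the replacement variants of H1, H2A and H3, such as H2AZ1, MACROH2A1 and H3-3A. Of 61853 entries in the count table, 82 were members, 70 of them replication-dependent and 12 variant. The day 0 group held 3 libraries of H9 cells before differentiation. The day 30 group held 3 libraries of cells taken through neural induction with SHH, purmorphamine, LDN-193189 and SB431542, then a Notch inhibitor phase with DAPT, and a final phase with BDNF. No allele, transgene or sorting step is named for either group, both come from 1 cell line, and the labels do not say whether the libraries of a day were separate cultures. The p-values therefore measure only the spread between these libraries, which may be technical. The study asked how genes of pre-rRNA processing are expressed on both days.

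Histone proteins package DNA into nucleosomes, each a core of H2A, H2B, H3 and H4 around which DNA is wound, with H1 binding the linker between them. Replication-dependent histone genes are transcribed mostly in S phase, when new DNA must be packaged, and their mRNAs end in a stem-loop in place of a poly(A) tail. Replacement variants such as H3.3 and H2A.Z are made throughout the cell cycle from ordinary polyadenylated mRNAs, and cells that no longer divide rely on them. The libraries were made from total RNA depleted of ribosomal RNA, so mRNAs with and without a poly(A) tail could both be counted. In bulk RNA, fewer cells making an mRNA and less of it per cell cannot be told apart.

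The stem-loop of replication-dependent histone mRNA can be read in the sequence of the RNA. A stem-loop was searched for as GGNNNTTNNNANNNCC, with the first 6 bases able to pair with the last 6, in the first 100 bases after the stop codon of the GENCODE 29 transcripts. It was found in 27 of the 29 replication-dependent members whose annotation covers that window (93.1%), in 1 of 12 variants (8.33%) and in 5 of 18713 other protein-coding genes (0.027%). For the other 41 replication-dependent members the annotation does not cover the whole window, and 3 of them held a site in the part covered. The following sites are shown with 5 bases on each side, from hg38, because they include members with a shallow fall by day 30 (H4C5, H2BC21, H2AC8), members with a deep one (H2BC9, H3C8, H4C9), and the single variant with a site, H2AX. Capitals mark the stem-loop.
H4C5, chr6:26204996-26205021, plus strand: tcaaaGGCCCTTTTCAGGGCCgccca
H2BC21, chr1:149886183-149886208, minus strand: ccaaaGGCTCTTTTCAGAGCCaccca
H2AC8, chr6:26217412-26217437, plus strand: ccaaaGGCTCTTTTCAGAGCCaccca
H2BC9, chr6:26252050-26252075, plus strand: ccaaaGGCTCTTTTCAGAGCCactta
H3C8, chr6:26270918-26270943, minus strand: aaaaaGGCTCTTTTAAGAGCCgccta
H4C9, chr6:27139649-27139674, plus strand: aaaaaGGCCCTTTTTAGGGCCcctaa
H2AX, chr11:119094893-119094918, minus strand: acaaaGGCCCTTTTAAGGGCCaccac
H2BC21, H2AC8 and H2BC9 carried the same 16 letters, although their changes on day 30 lay far apart, as described with their values.

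Expression is given as CPM, a gene's counts per 1000000 counts of the library, as means with the SD of 3 libraries. Changes are log2 ratios, day 30 over day 0, each with a standard error (SE), from edgeR's quasi-likelihood test over 18040 genes, with a Benjamini-Hochberg adjusted p under 0.05 counted as passing. Library totals ran from 5013643 to 12924842 counts. Summed CPM of 5 pluripotency markers ran from 4057 to 4258 on day 0 and from 18.3 to 29.7 on day 30, and that of 6 neuronal markers from 154 to 173 and from 4480 to 5372. The sum of 5 hypothalamic markers was at most 1.81 CPM on day 0 and at least 1495 CPM on day 30, and all 5 rose. The 6 neural progenitor markers were mixed, with sums of 1380 to 2113 CPM on day 0 and 976 to 1199 CPM on day 30. Log2 changes of the 4 tested ran from -1.8 to 7.35, and HES5 was at 0 on day 30. Astroglial, oligodendroglial, endothelial and microglial markers each summed to at most 31.0 CPM on day 30. The day 30 replicate 3 stood apart in mesenchymal markers, which summed to 3685 CPM there against 154 in the lowest library of that day, and in MKI67. Without it, COL1A1 no longer passed (log2 change 0.71, adjusted p = 0.0758 in edgeR) and neither did COL1A2 (0.27, adjusted p = 0.601).

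Replication-dependent histone mRNA was lower on day 30 in every tested gene. Of the 70 replication-dependent members, 59 had enough reads to be tested, and all 59 fell. A gene could pass the filter on low counts by its day 0 reads alone, so this describes the tested genes and not all 70. Over all genes tested, 36.8% were lower, and the CPM of the days did not overlap in 79.4%. In these 59 members no value of a day 30 library reached the lowest day 0 library. A fall of 16-fold or more was found in 37 of the 59, against 4.51% of all genes. The median log2 change of the 59 was -4.90, with quartiles of -6.37 and -3.47 and a range from -7.22 to -1.08, beside a median of 0.08 over all genes. On day 0, 50 of the 59 lay at 50 CPM or more, and on day 30 only H4C5, H1-4, H2BC21 and H2AC8 did.

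**Figure D1:**
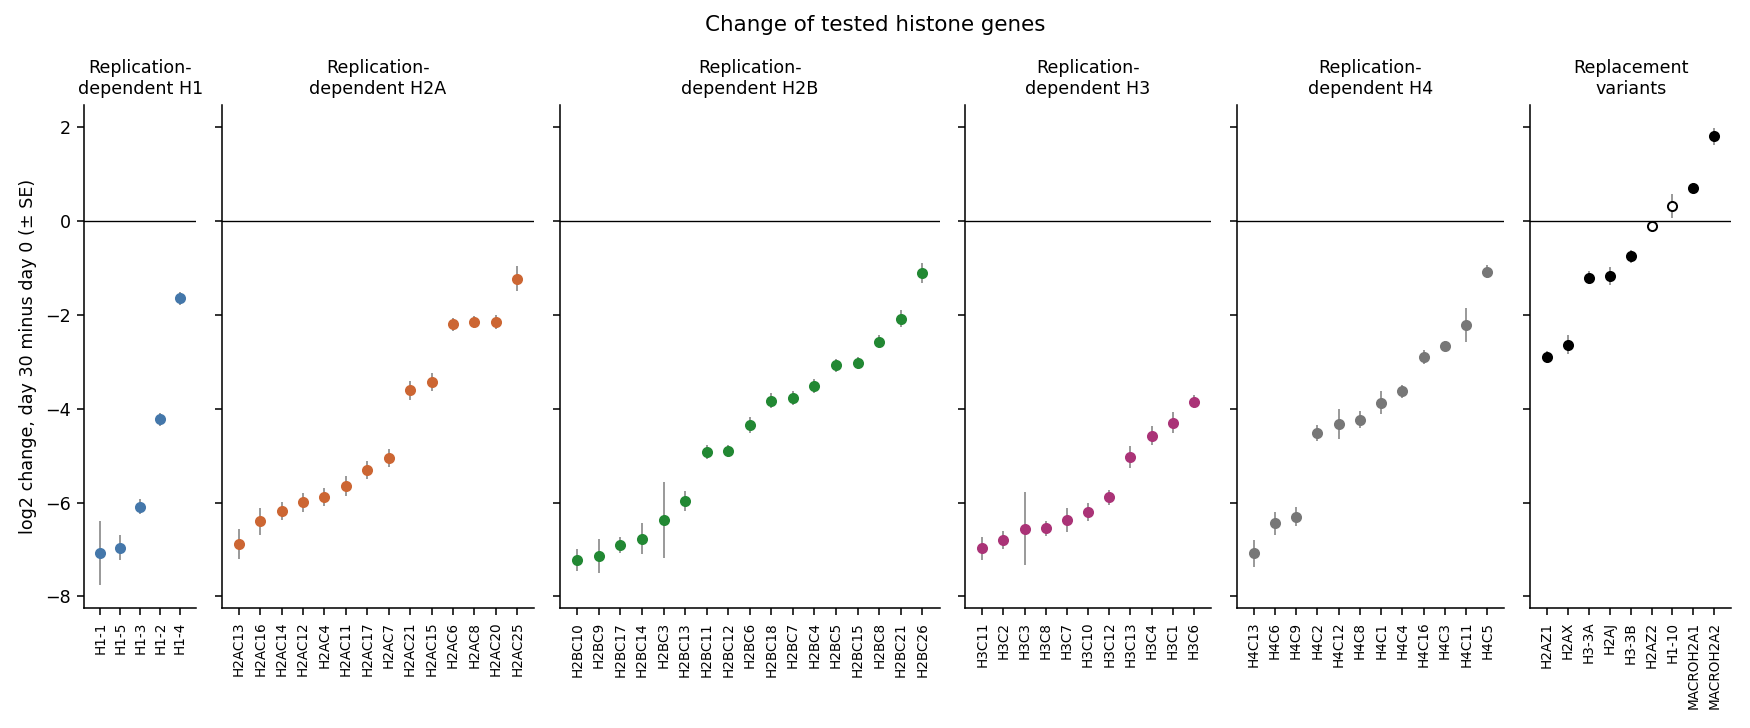
Log2 change of day 30 against day 0 (vertical axis, with the approximate standard error as bars) for tested histone genes, grouped by class and ordered within it. Filled points passed the test and open points did not. All 59 replication-dependent genes lie below 0, from -7.22 to -1.08, while the variants shown run from -2.89 to 1.81.

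Summed over the 70 genes, replication-dependent histone reads made up 1.00%, 0.827% and 0.829% of counts in the day 0 libraries. They made up 0.0854%, 0.0780% and 0.0722% in the day 30 libraries. The mean was 11.3-fold lower, so that 8.87% of the day 0 share was left. The highest day 0 sum was that of replicate 1, which was also the highest library of its day in 52 of the 59 tested genes.

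By class, the summed share was 42.2-fold lower for H3, 11.8-fold for H2B, 11.1-fold for H1, 10.1-fold for H2A and 7.31-fold for H4. The order of the medians was alike at its ends, with H3 at -6.20 over 11 genes and H4 at -4.05 over 12. H1 had a median of -6.09 over 5 genes, H2A of -5.18 over 14 and H2B of -4.35 over 17. Differences between classes were not tested. Variant genes together took up 0.142% ± 0.001 of the reads of day 0 and 0.0849% ± 0.0084 of those of day 30, a 1.68-fold lower share, so that on day 30 their sum was close in size to that of the 70 replication-dependent genes.

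**Figure D2:**
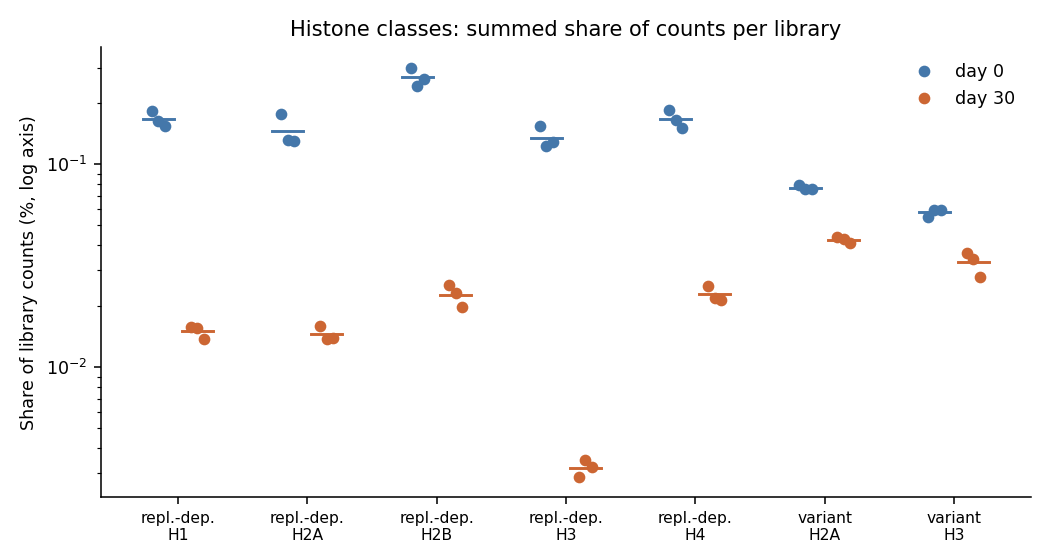
Share of each library's counts (percent, log axis) held by the replication-dependent (repl.-dep.) genes of each histone class and by the variant genes of H2A and H3. Each point is 1 library and each bar the mean of a day. Replication-dependent H3 shows the widest gap, from 0.135% to 0.0032%, and in no class shown do the days overlap.

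Linker histones were led on day 0 by H1-5, one of the somatic H1 subtypes made in dividing cells. H1-5 (chr6:27866849-27867529, minus strand) was counted at 659.5, 584.9 and 549.2 CPM on day 0 and at 3.61, 4.18 and 8.78 CPM on day 30. The days were far apart, and day 30 replicate 3 was the highest of its group. The log2 change was -6.96 ± 0.26 (adjusted p = 3.08e-09 in edgeR).

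H1-4 (chr6:26156354-26157107, plus strand), another somatic H1 subtype, kept 33.9% of its day 0 level. It was counted at 351.2, 329.0 and 333.4 CPM on day 0 and at 127.4, 119.9 and 95.9 CPM on day 30. Its libraries did not overlap either, and its log2 change was -1.65 ± 0.13 (adjusted p = 9.23e-07 in edgeR). H1-2 and H1-3 lay between them and H1-5, with log2 changes of -4.23 ± 0.14 and -6.09 ± 0.17. H1-1, the scarcest of the tested H1 genes, had 156 counts in all on day 0 and 1 on day 30. That ratio of 182 has a 95% counting interval of 32.1 to 7219, which covers counting error only. The log2 change of -7.08 for H1-1 became -8.67 without day 30 replicate 2, which held its only read. H1-6, the testis H1, had at most 23 counts in a library and was not tested.

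Within the replication-dependent H1 genes, H1-5 held the most reads on day 0 and H1-4 on day 30. H1-5 held 35.7% ± 0.3 of their reads on day 0 and 3.77% ± 2.24 on day 30. H1-4 held 20.2% ± 1.1 and 75.5% ± 5.7. H1-2 held 28.1% ± 1.3 and 18.0% ± 3.6, and H1-3 held 15.5% ± 0.7 and 2.54% ± 0.47. The annotated exon length of these 4 genes is between 642 and 754 bases.

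**Figure D3:**
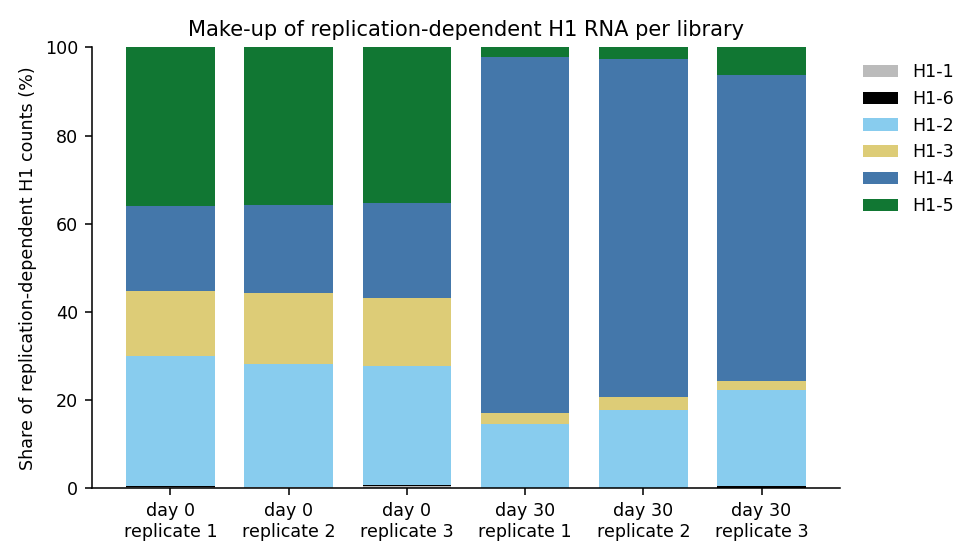
Make-up of replication-dependent linker histone RNA in each library, as each gene's share of their summed counts (percent, linear axis from 0 to 100), with 1 stacked bar a library. H1-5, with a mean of 35.7%, and H1-2 take up most of the day 0 bars, and H1-4 takes up a mean of 75.5% of the day 30 bars.

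H2A and H2B form a dimer in the nucleosome, and their genes often sit head to head with a short shared promoter. Among H2A genes, H2AC8 was the most abundant on both days. H2AC8 was counted at 254.9, 204.8 and 206.8 CPM on day 0 and at 59.1, 46.5 and 53.1 CPM on day 30. The groups did not overlap, and the log2 change was -2.16 ± 0.13 (adjusted p = 9.24e-08 in edgeR). H2AC6 and H2AC20 fell by 2.20 and 2.15 on the log2 scale, close to H2AC8. H2AC13 had the largest fall of an H2A gene, from 204.8, 157.8 and 154.7 CPM to 0.413, 1.93 and 2.59 CPM, with a log2 change of -6.89 ± 0.31. Only 42.3% of the 100-base stretches of its exons occur in no other annotated gene, which limits this value. H2AC8, H2AC6 and H2AC20 held 36.3%, 25.5% and 16.1% of the replication-dependent H2A reads on day 30, against 15.3%, 11.1% and 6.76% on day 0.

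Among H2B genes, H2BC12 and H2BC5 had the highest means on day 0, 271.3 and 270.8 CPM, and their order differed between libraries. On day 30 H2BC21 had the highest mean. H2BC12 went from 307.2, 253.5 and 253.2 CPM to 9.24, 10.3 and 9.08 CPM, for a log2 change of -4.90 ± 0.13. H2BC21 (chr1:149884459-149886652, minus strand) went from 265.8, 193.7 and 191.2 CPM to 61.0, 59.5 and 40.7 CPM, for a log2 change of -2.08 ± 0.18 (adjusted p = 1.42e-06 in edgeR). In both genes all day 0 libraries were above all day 30 libraries. The largest fitted fall of any tested member was that of H2BC10, from 159.8, 133.2 and 146.1 CPM to 0.619, 0.928 and 1.99 CPM, with a log2 change of -7.22 ± 0.23 (adjusted p = 1.62e-09 in edgeR). H2BC9, from 225 ± 16.6 to 2.12 ± 1.96 CPM, was next in size at -7.14 ± 0.36, or -7.88 without day 30 replicate 3. That order is uncertain for genes with few reads. H2BC3 had 94 counts on day 0 against 2 on day 30 (rounded), 54.7-fold lower with a 95% counting interval of 14.7 to 458. Its log2 change was -6.37, and leaving out day 30 replicate 3 or 2 gave -8.25 or -5.63.

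Across divergent H2A and H2B pairs, a deeper fall of the H2A gene went with a deeper fall of the H2B gene, though partners could differ. Over the 11 pairs with both genes tested, the H2A and H2B log2 changes had a Pearson's r of 0.882 and a Spearman's rho of 0.882, across pairs of genes from the same 6 libraries. The median difference within a pair was 0.72 and the largest, between H2AC17 and H2BC17, was 1.61. The partners H2BC4 and H2AC6 differed by 1.31 and H2AC7 and H2BC7 by 1.29. H2AC17 and H2AC7 have only 16.0% and 2.4% of their 100-base stretches to themselves, so the gaps of 1.61 and 1.29 are uncertain. Pairs were not compared with unpaired neighbours. H2BC21 and H2AC20, whose starts lie 323 bases apart, changed by -2.08 and -2.15. H2AC25 and H2BC26, a pair on chromosome 1 at chr1:228456979-228460470, changed by only -1.23 and -1.10. H2AC13 and H2BC13 changed by -6.89 and -5.97. H2AC15 and H2BC15 overlap in the annotation, so their reads may be shared.

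Replication-dependent H3 genes kept the smallest summed share of any class, 2.37% of its day 0 value, and none stayed abundant. H3C2, the most abundant on day 0, was counted at 253.5, 212.9 and 223.3 CPM on day 0 and at 1.55, 2.79 and 1.99 CPM on day 30. Its log2 change was -6.80 ± 0.19 (adjusted p = 8.28e-10 in edgeR). H3C11 had the largest fitted fall, -6.98 ± 0.25, from 116 ± 25.2 to 1.05 ± 0.40 CPM. H3C3 had 108 counts on day 0 against 1 on day 30, 126-fold lower with a 95% counting interval of 22.1 to 5011. Its log2 change was -6.55, and leaving out day 30 replicate 1 or 2 gave -8.28 or -5.83. H3C6 had the smallest, -3.85 ± 0.14, from 170.1, 149.1 and 148.5 CPM to 11.6, 12.6 and 9.57 CPM. H3C6 held 35.3% ± 5.3 of the replication-dependent H3 reads on day 30, against 11.6% ± 0.6 on day 0. Its annotated exons span 2679 bases, against 411 for genes such as H3C1 and H3C2, so its share of reads depends on length. Per kilobase of exon H3C6 stood at 4.20 CPM on day 30. There the tested replication-dependent H3 genes ran from 0.0837 (H3C3) to 7.00 (H3C1).

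H4 has no variant among the members, and nearly all its genes encode the same core protein. H4C5 (chr6:26204552-26206038, plus strand) was counted at 299.8, 249.4 and 226.7 CPM on day 0 and at 150.7, 122.2 and 116.5 CPM on day 30. It was the most abundant member of the replication-dependent set on day 30 in CPM, and its 3 day 30 libraries lay below its 3 day 0 libraries. Its log2 change of -1.08 ± 0.14 (adjusted p = 3.43e-05 in edgeR) was the smallest fall of the 59. H4C13 had the largest fall of an H4 gene, from 109.6, 106.0 and 89.6 CPM to 0.516, 0.464 and 1.99 CPM, for a log2 change of -7.08 ± 0.29, or -7.72 without day 30 replicate 3. H4C3 and H4C16, the latter on chromosome 12 near the variant H2AJ, fell by 2.67 and 2.89 on the log2 scale.

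Much of the replication-dependent read count left on day 30 was thus held by few genes. These are shares of reads and are not scaled by exon length. H4C5, H1-4, H2BC21 and H2AC8 held 11.7% ± 0.1 of the replication-dependent reads on day 0 and 44.5% ± 2.1 on day 30. Their number and identity were read from the day 30 levels, so a rise of their share is in part built in, and this is a description. With H2BC8, H2AC6, H4C3, H2BC5, H1-2 and H2AC20, the 10 most abundant genes of day 30 in CPM held 28.0% ± 0.2 on day 0 and 69.5% ± 1.9 on day 30. Those 10 were picked by day 30 level as well. H1-5, which had the highest mean CPM of day 0 (597.9), is not among them. H4C5 alone held 15.4% ± 0.6 of H4 reads on day 0 and 56.5% ± 2.8 on day 30. Its annotated exons span 1487 bases, against 435 for H4C3 and 312 for H4C4. Per kilobase of exon, the day 30 order began with H1-4 (151.7 CPM), H2AC8 (103.9), H4C5 (87.3), H4C3 (80.3) and H4C4 (65.3). By that measure H2BC21, at 24.5, was not among the 10 highest.

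The genes with deep and shallow falls also differed in which day 30 library was highest. The 37 genes lower by 16-fold or more summed to 114, 125 and 141 CPM in replicates 1, 2 and 3, with replicate 3 the highest in 18 of them. The other 22 summed to 739, 655 and 580 CPM, with replicate 1 the highest in 17 of them. MKI67, which marks cycling cells, was counted at 6.61, 7.58 and 17.95 CPM in the same libraries, and 6 markers of dividing cells summed to between 20.5 and 56.2 CPM on day 30 against 1558 to 1582 CPM on day 0. The part of those markers, and of the mesenchymal markers of replicate 3, in this pattern was not tested. Without replicate 3 the median of the replication-dependent members was -4.86, over 60 tested genes.

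Most replication-dependent genes lie on chromosome 6, where the size of the fall varied by stretch. In the largest group, between 26.0 and 26.3 Mb, the 30 tested genes had a median log2 change of -4.32. The 5 genes of the next group had a median of -5.64, and the 16 genes of the group at 27.8 Mb a median of -6.19. That last group held shallower falls too, of H4C11 (-2.21), H2BC15 (-3.03) and H2AC15 (-3.42). These values are uncertain. H4C11 has 22.3% of its 100-base stretches to itself and H2AC15 none, and H2BC15 overlaps other histone genes in the annotation. Within the largest group, the 14 genes from H4C3 to H3C6 had a median of -3.30, and 3 of them fell by 16-fold or more. The 9 genes before them, H1-1 to H1-2, had a median of -5.87, and the 7 after them, H1-3 to H4C8, one of -6.45. In those flanks 8 of 9 and 7 of 7 fell by 16-fold or more. The bounds of these stretches were set after the values were seen, so no test was made. On chromosome 1, the 5 tested genes between H2BC18 and H2AC21 had a median of -3.61.

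**Figure D4:**
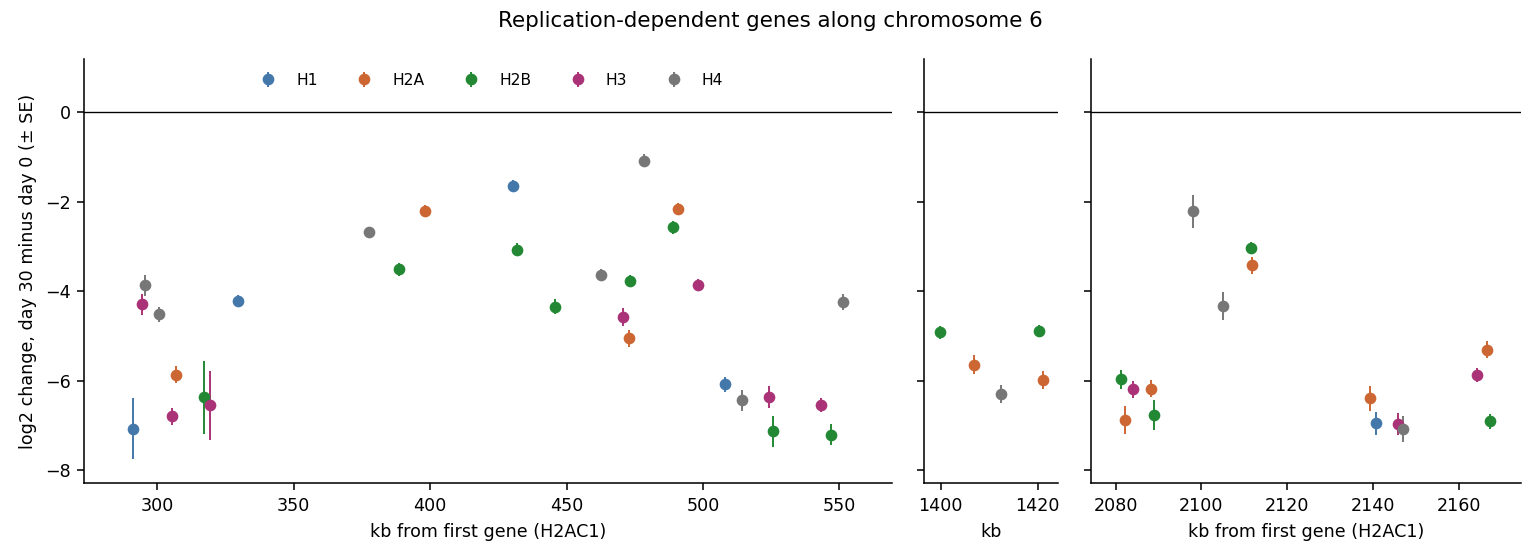
Log2 change (vertical axis, with approximate standard error) of the tested replication-dependent genes on chromosome 6, by distance in kb from the start of the first histone gene there, H2AC1, in 3 groups of genes with gaps between panels, coloured by histone class. Points nearer to 0, such as H4C5 at -1.08 and H1-4 at -1.65, lie in the middle of the largest group. H4C11 at -2.21, an uncertain value, lies in the last group.

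Length of the annotated RNA went with the size of the fall to a limited degree. The 16 genes whose annotation runs 300 bases or more past the stem-loop had a median log2 change of -3.40, and the other 43 a median of -5.64. Those 43 include genes in which no site was found, such as H2AC11 with 2250 exon bases. The overlap was wide, since the first set runs from -7.14 (H2BC9) to -1.08 (H4C5). By exon length itself the gap was narrower, with a median of -3.825 for the 17 genes over 1000 bases and -5.18 for the other 42. Across the 59 genes, the log2 change and the log2 of exon length had a Pearson's r of 0.333 and a Spearman's rho of 0.317, as a description over genes of the same 6 libraries. Of the replication-dependent genes, 6 are known to yield polyadenylated mRNA in differentiated cells (H1-2, H2AC6, H2BC4, H2BC5, H2BC12 and H2BC21). All 6 fell, with a median of -3.30, beside -5.06 for the other 53. Gene counts do not show where on the RNA the reads lie, so read-through past the stem-loop was not tested.

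Promoter sequence, the 250 bases before the RefSeq start (GRCh38.p14), was at hand for 64 replication-dependent and 11 variant members. The following motifs were searched on both strands, with their letters chosen in part after the promoters were seen. CCAAT, bound by the factor NF-Y, was in all promoters of replication-dependent H1, H2A, H2B and H3 genes but in 23.1% of those of H4, against 32.0% of all 35116 promoters. The window given for H3C4 is the same stretch of chromosome 6 as that of H2AC7, so it counts for both genes. The octamer ATTTGCAT, bound by POU2F1, was in 68.8% of H2A and 77.8% of H2B promoters and in 1.63% of all. The H2A and H2B shares are not independent. Windows of divergent partners overlap, such as H2AC6 with H2BC4 and H2AC11 with H2BC11, so the same site can count for both genes. TATAAA was in 65.6% of replication-dependent promoters and 10.7% of all, and TGACGTCA in 14.1% and 1.65%. The windows of 5 members are printed because they pair a shallow with a deep fall in the same class (H4C5 with H4C13, H1-4 with H1-5) and show a divergent H2A and H2B promoter, that of H2AC8, which overlaps the window of H2BC8. GGGCGG, a GC box, was in 28.1% and 42.6%. Capitals mark matches to these motifs on either strand.
H4C5, chr6:26204360-26204609, plus strand: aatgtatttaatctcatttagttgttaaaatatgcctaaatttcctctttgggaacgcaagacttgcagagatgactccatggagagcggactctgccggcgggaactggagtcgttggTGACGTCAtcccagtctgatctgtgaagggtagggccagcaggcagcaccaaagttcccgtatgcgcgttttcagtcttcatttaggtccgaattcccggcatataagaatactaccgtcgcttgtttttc
H4C13, chr6:27873535-27873784, minus strand: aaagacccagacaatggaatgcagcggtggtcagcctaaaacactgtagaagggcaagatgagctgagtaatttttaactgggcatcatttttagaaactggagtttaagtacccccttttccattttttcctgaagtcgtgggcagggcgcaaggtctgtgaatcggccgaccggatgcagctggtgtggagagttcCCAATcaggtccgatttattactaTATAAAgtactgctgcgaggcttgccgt
H1-4, chr6:26156079-26156328, plus strand: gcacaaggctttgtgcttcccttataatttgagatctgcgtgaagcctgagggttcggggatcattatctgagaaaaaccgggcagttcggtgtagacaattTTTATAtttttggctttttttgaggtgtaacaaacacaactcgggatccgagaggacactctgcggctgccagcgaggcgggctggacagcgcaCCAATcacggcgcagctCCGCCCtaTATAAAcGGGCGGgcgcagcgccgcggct
H1-5, chr6:27867589-27867838, minus strand: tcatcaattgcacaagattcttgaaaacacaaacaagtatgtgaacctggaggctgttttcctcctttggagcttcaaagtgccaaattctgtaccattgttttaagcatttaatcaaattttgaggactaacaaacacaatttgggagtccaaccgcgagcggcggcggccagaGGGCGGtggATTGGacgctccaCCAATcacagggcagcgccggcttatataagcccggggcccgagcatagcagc
H2AC8, chr6:26216671-26216920, plus strand: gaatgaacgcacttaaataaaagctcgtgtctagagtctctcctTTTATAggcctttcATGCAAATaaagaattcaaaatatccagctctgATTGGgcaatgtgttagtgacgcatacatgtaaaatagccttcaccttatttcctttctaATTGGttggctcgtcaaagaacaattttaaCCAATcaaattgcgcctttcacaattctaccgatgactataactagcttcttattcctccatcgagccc
The H4C5 window held TGACGTCA and none of the other motifs, and that of H4C13 held CCAAT and TATAAA. H1-4 and H1-5, with log2 changes of -1.65 and -6.96, shared CCAAT and GGGCGG, and H1-4 held TATAAA in addition. The 24 tested genes with the octamer had a median log2 change of -4.91 and the 30 without it one of -4.42. The 7 tested genes with TGACGTCA, among them H4C5, had a median of -6.19 and the 47 without it one of -4.52. The 47 tested genes with CCAAT had a median of -5.06, and the 7 without it, all of them H4 genes, one of -3.63. These splits were not tested. A match is a string of letters, and binding was not measured.

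Not all members could be counted well. The 11 untested replication-dependent genes had at most 23 counts in a library. Among them, H2AC18, H3C14, H3C15 and H2BC12L share every 100-base stretch of their exons with another annotated gene, and H2AC19, H4C14 and H4C15 keep only 2.9% to 5.1% of such stretches to themselves. Reads of such near-identical copies may have been left out or split by the counting, which is not described. H3C15 had 15 counts on day 0 and 0 on day 30, which makes it at least 5.82-fold lower against a floor of 3 counts over the group. H3C14 and H2BC1, the testis H2B, had 12 and 6 counts on day 0 and 0 on day 30, at least 4.66-fold and 2.33-fold lower by the same floor. H4C15 had 9 and 2 counts, a ratio of 5.24 with a 95% counting interval of 1.08 to 49.8. H4C14 had 7 and 2 counts, a ratio of 4.08 with a 95% counting interval of 0.776 to 40.2. The tested genes H3C4, H2AC15 and H4C12 also have no 100-base stretch of their own, so their values are uncertain. H2AC7, H2AC17, H2AC14, H4C11, H2AC13 and H3C13, also tested, keep only 2.4% to 48.7% of such stretches, which limits their values too. H2AC1, H4C7, H2AC19 and H2BC12L had 3 or fewer counts on both days, so no ratio is given.

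Replacement variants did not move as a block. Of 12 variant members, 10 were tested, with H1-7 and H1-8, a pair of germline linker histones, at 0 in every library, which in the smallest library allows up to 0.598 CPM (3 counts). Of the 10, 5 fell and 2 rose, with 39.8% of all genes tested being higher, and 3 did not pass. Their median log2 change was -0.42, with a range from -2.89 to 1.81.

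H2AZ1, which encodes the main H2A.Z protein of active promoters, had the largest fall of the variants. H2AZ1 was counted at 471.2, 489.9 and 478.4 CPM on day 0 and at 73.8, 70.1 and 61.8 CPM on day 30. The log2 change was -2.89 ± 0.13 (adjusted p = 7.89e-09 in edgeR). Its paralog H2AZ2, which encodes a nearly identical protein, was counted at 121.5, 110.1 and 113.6 CPM and at 120.9, 115.8 and 106.3 CPM. Those libraries overlapped, with a log2 change of -0.10 ± 0.11 (adjusted p = 0.429 in edgeR) that became 0.05 when libraries were scaled by their protein-coding totals. H2AZ2 thus lay below H2AZ1 in CPM in every day 0 library and above it in every day 30 library. Per kilobase of exon, H2AZ1 held 6.86% ± 1.14 and 8.35% ± 0.44 of H2A CPM, and H2AZ2 held 0.793% ± 0.089 and 6.76% ± 0.28.

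H2AX, the variant phosphorylated at DNA breaks and the one with a stem-loop, fell from 67.7, 47.5 and 43.4 CPM to 10.2, 9.67 and 6.38 CPM. Its log2 change was -2.63 ± 0.21 (adjusted p = 6.93e-07 in edgeR), smaller than the median of the replication-dependent genes. H2AJ fell from 13.4 ± 2.7 to 6.31 ± 0.30 CPM, for a log2 change of -1.16 ± 0.20.

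The H3.3 genes, which encode 1 protein from a pair of loci, both fell, with log2 changes nearer to 0 than that of any tested replication-dependent H3 gene. H3-3B was counted at 341.8, 374.0 and 356.4 CPM on day 0 and at 253.1, 234.4 and 190.3 CPM on day 30, for a log2 change of -0.75 ± 0.14 (adjusted p = 4.78e-04 in edgeR). H3-3A went from 206.8, 224.5 and 236.3 CPM to 112.7, 107.6 and 88.4 CPM, for a log2 change of -1.20 ± 0.14 (adjusted p = 1.44e-05 in edgeR). Neither gene's days overlapped. Per kilobase of annotated exon, H3-3A and H3-3B together held 5.67% ± 0.92 of H3 CPM on day 0 and 61.4% ± 5.7 on day 30. Exon length counts every annotated isoform, which is long for the H3.3 genes, so these shares depend on the annotation.

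MacroH2A carries a large extra domain and is known to rise in differentiated cells, and both its genes rose. MACROH2A2 was counted at 26.9, 16.0 and 22.3 CPM on day 0 and at 87.8, 81.9 and 72.6 CPM on day 30. All day 30 libraries were above all day 0 libraries, with a log2 change of 1.81 ± 0.17 (adjusted p = 3.63e-06 in edgeR). MACROH2A1 rose from 84.2, 85.5 and 82.6 CPM to 142.0, 142.7 and 154.2 CPM, for a log2 change of 0.70 ± 0.10 (adjusted p = 6.92e-05 in edgeR). MACROH2A2 held 0.354% ± 0.061 of H2A CPM per kilobase on day 0 and 11.4% ± 0.6 on day 30. H1-10 was counted at 40.5, 19.6 and 24.1 CPM and at 44.1, 40.1 and 26.3 CPM, with a log2 change of 0.33 ± 0.25 (adjusted p = 0.256 in edgeR). It passed without day 0 replicate 1 (0.61, adjusted p = 0.0378 in edgeR). An antisense gene lies across H1-10, and genes on the opposite strand also overlap H2AZ1, H3-3A, H3-3B, MACROH2A1 and MACROH2A2. Whether the counting used the strand is not given, so reads of such partners may be included.

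**Figure D5:**
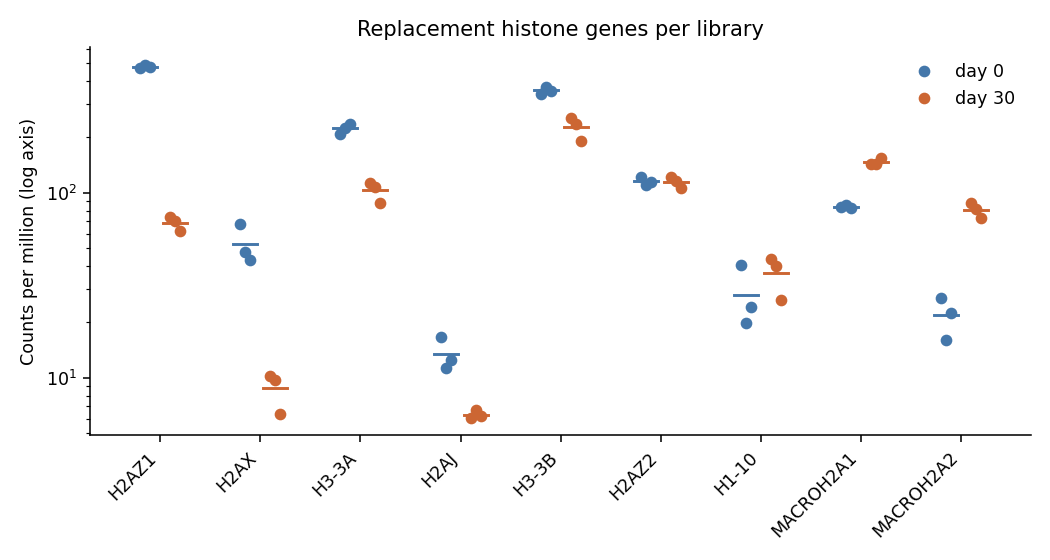
CPM (log axis) of replacement histone genes in each library, ordered by log2 change, with a bar at the mean of each day. H2AZ1 falls from a mean of 480 to 68.6 CPM, H2AZ2 stays near 115 CPM with overlapping days, and MACROH2A2 rises from 21.8 to 80.8 CPM.

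Genes that drive histone transcription had a median change nearer to 0 than the histone genes. Counts of this and the following lists stand beside 36.8% of all genes tested being lower and 39.8% higher. NPAT, the coactivator of histone genes at the histone locus body, fell from 59.2, 59.9 and 62.0 CPM to 40.5, 38.7 and 41.7 CPM, for a log2 change of -0.68 ± 0.11 (adjusted p = 2.22e-04 in edgeR). CASP8AP2, another component of that body, fell by 0.97 ± 0.11 on the log2 scale. CDK2 and CCNE2, the kinase and a cyclin that activate NPAT, changed by -4.20 and -4.56. Of the 9 genes listed for histone transcription, 6 fell and 1 rose, the H1 gene regulator CRAMP1 at 0.61 ± 0.16, and the median was -0.97.

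Of 10 genes for 3′ end processing, 6 fell and 1 rose, with a median of -0.74. SLBP, the protein that binds the stem-loop, fell from 38.0, 38.2 and 40.7 CPM to 21.7, 22.4 and 19.7 CPM, for a log2 change of -0.96 ± 0.13 (adjusted p = 5.50e-05 in edgeR). CPSF3, the endonuclease that cuts the histone pre-mRNA, fell by 1.87 ± 0.14 on the log2 scale. LSM11, a subunit found only in the U7 snRNP, rose from 15.8, 13.9 and 13.5 CPM to 74.9, 71.3 and 56.8 CPM, for a log2 change of 2.15 ± 0.15 (adjusted p = 2.86e-07 in edgeR). Its partner in the U7 ring, LSM10, was counted at 16.9 ± 2.4 and 14.3 ± 1.8 CPM and did not pass (-0.32, adjusted p = 0.112), but did without day 30 replicate 1 (-0.47, adjusted p = 0.0497). Of 7 genes for translation and decay of histone mRNA, 3 fell and 2 rose, shares not far from those over all genes. ERI1, the exonuclease that trims the stem-loop, fell by 1.07 ± 0.20, while TUT4, a uridylyltransferase, rose by 0.99 ± 0.10 on the log2 scale.

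Chaperones that deliver newly made histones to replicating DNA fell in 14 of 15 cases, with a median of -1.67. CHAF1A and CHAF1B, subunits of the chromatin assembly factor CAF-1, changed by -4.45 ± 0.17 and -3.87 ± 0.18. ASF1B went from 18.3 ± 3.8 to 0.367 ± 0.401 CPM, for a log2 change of -5.67 that ranged to -7.26 without day 30 replicate 1 and to -4.96 without replicate 2. Its paralog ASF1A, which also serves H3.3 deposition, fell by 1.26 ± 0.13 on the log2 scale. NASP, which holds the pool of soluble H3 and H4, fell from 681.8, 646.1 and 584.7 CPM to 72.7, 74.0 and 80.4 CPM, for a log2 change of -3.17 ± 0.11 (adjusted p = 2.10e-09 in edgeR). All 18 listed S-phase genes fell, with a median of -4.59 near that of the replication-dependent histones, and MCM5, a subunit of the replicative helicase, had the largest fall at -6.64 ± 0.23.

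Chaperones of the variants were mixed, with 8 of 14 lower, 3 higher and a median of -0.57. HIRA, which deposits H3.3, fell by 0.55 ± 0.14, while ATRX rose by 0.74 ± 0.11 on the log2 scale (adjusted p = 1.22e-04 in edgeR). DAXX, the partner of ATRX, was counted at only 1.35 ± 0.05 and 0.247 ± 0.057 CPM and changed by -2.43. HJURP and OIP5, which load CENP-A at centromeres, changed by -6.65 and -7.35, HJURP by -7.30 without day 30 replicate 3. OIP5 had 452 counts in all on day 0 and 3 on day 30, so the size of its fall is uncertain. CENPA, the centromeric H3, which the symbol rule does not take in, fell from 21.4 ± 2.6 to 2.71 ± 0.69 CPM, for a log2 change of -3.15 ± 0.23. In the NAP1 family of H2A and H2B chaperones 2 of 6 genes fell and 3 rose. SET fell by 2.24 ± 0.15, and NAP1L5, a neuronal member, rose from 1.80, 2.09 and 1.25 CPM to 56.0, 47.7 and 39.3 CPM, for a log2 change of 4.72 ± 0.23 (adjusted p = 1.96e-08 in edgeR).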

How the data were processed

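Total RNA of H9 cells on day 0 and day 30 was depleted of ribosomal RNA and sequenced from stranded libraries, per the labels' protocols. The submitters' processing notes name FastQC 0.11.9 and hg38. For the aligner, counter, annotation release and strand setting, the sources used here give nothing. The authors' deposited table holds expected counts per gene, of which 92.6% are whole and the rest fractions. Of the values above 0, 83.7% are whole. The plan assumed raw counts, and each value was rounded before the test.

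Members were matched to GENCODE 29, 78 by gene ID and 4 by older symbol. CPM was computed from each library's total. Genes were tested with edgeR 4.0.16 in R 4.3.3 (quasi-likelihood test, TMM, filterByExpr, 2-sided), and its standard errors are approximate, as the absolute log2 change over the root of the F statistic. The test was checked on simulated counts. DESeq2 1.42.0 was an alternative. No test was made on sums or lists. The members and lists were chosen with earlier results of these data known. Named genes are tested variants, the most abundant and most changed member of each class, known polyadenylated members, fixed regulators and the extremes of each list. All other genes named were chosen after their values were seen. The result of 1 member is not reported here.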

Additional observations from a re-analysis of the deposited data

How the results depend on the processing

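The 59 replication-dependent members that passed as lower did so in the main analysis and under all 13 alternatives, which were other scaling, other filters, dropped fractions, DESeq2, a replicate block and leaving out each library. The summed share of all 70 replication-dependent members changed by -3.56 to -3.40 on the log2 scale when 1 library was left out, against -3.49 in the main analysis. Same-numbered libraries did not deviate together (r of 0.075, -0.004 and -0.049), so the numbers were not taken to pair them. With the replicate block, 64 members were lower and 2 higher, as without it, and 6415 genes were lower and 6921 higher. It left the counts of the pathway lists as they were, except that 2 chaperones of the variants were higher, against 3. Of 688 alternative values for 53 named genes, 684 kept their direction and side of the threshold, 3 newly passed and 1 reversed, H2AZ2 at 0.051 with protein-coding library totals. That scaling moved the median of all genes from 0.08 to 0.24. Without a filter on low counts, 2 of the other histone genes outside the symbol rule were lower and 1 higher, against 1 and 0, because more of them were tested. Members with 3 or fewer counts on a day are limited by depth. Of the 59, leaving out 1 library moved the change of 5 (H1-1, H2BC3, H2BC9, H3C3 and H4C13) by over 1.5 times, and all 5 still passed.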
